A study of Mus musculus with 4 samples.

Results

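Glycolysis turns glucose into pyruvate, and the genes described here cover its course from the uptake of glucose to the formation of lactate. They are Slc2a1 (the glucose transporter Glut1), Hk2, Pfkl, Pfkp, Aldoa, Gapdh, Pgk1, Pgam1, Eno1 and Ldha. The members were chosen with earlier results of these data known. Their probes were found by gene symbol, and all 10 had a named probe. Aldoa had 2 probes, so 11 of 23473 probes and 10 of 16446 named genes are described. RNA of 4 cultures of tumor organoids, grown from intestinal polyps of ApcMin mice in Matrigel with EGF and noggin, was hybridized to 1 array each. The untreated control and the organoids given 1 μM 5-Aza-CdR, an inhibitor of DNA methylation that was in the medium for 24 hours, were harvested at day 4. The control shRNA organoids carried an empty lentiviral vector and the Dnmt1 knockdown organoids a vector with an shRNA against Dnmt1, and both were selected with puromycin and harvested 9 days after infection. All 4 cultures carried the Min allele of Apc, and how many animals or organoid lines they came from is not given in the sources used here. Since each condition was measured once, the differences below carry no replicate error and no p-values.

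In the pathway, hexokinase traps glucose in the cell as glucose 6-phosphate, and phosphofructokinase commits it to breakdown. Aldolase splits the sugar, glyceraldehyde 3-phosphate dehydrogenase oxidizes the fragments, and phosphoglycerate kinase makes ATP. Phosphoglycerate mutase and enolase prepare the last ATP-yielding step, and lactate dehydrogenase A reduces pyruvate to lactate. Tumor cells often run this route at high rates even with oxygen present. Hypoxia-inducible factor 1 (HIF-1) is a known activator of nearly all of these genes when oxygen is low, and Myc is another.

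Intensities below are the deposited values, from which the signal of blank spots had been subtracted and in which the median of each array was 25. They compare the same probe between arrays and not different genes. Each of the 11 probes was brightest in the untreated control, next in the 5-Aza-CdR organoids and dimmer in both lentiviral cultures. The log2 ratios were computed from the spot signals after a normexp correction with an offset of 50 and quantile normalization over the 4 arrays. On that scale 8 of the 10 genes kept this order of the treated and lentiviral cultures, and in Hk2 and Pfkp the 5-Aza-CdR value lay below that of the control shRNA. A gene was called when its ratio was at least 2-fold and the brighter spot lay above the detection limit. In RNA from whole cultures, fewer cells with a high level and less RNA per cell cannot be told apart.

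**Figure D1:**
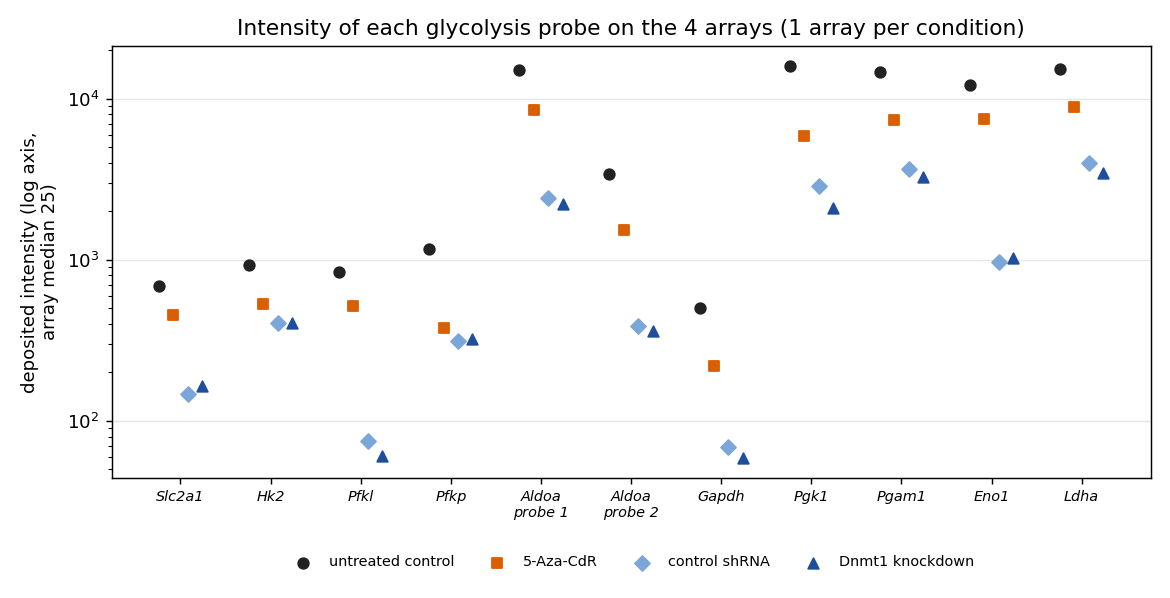
Deposited intensity (vertical axis, log scale) of the 11 probes, 1 point per array. The untreated control is the highest point for each of the 11 probes, and the points of control shRNA and Dnmt1 knockdown lie close together.

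With 5-Aza-CdR all 10 genes were lower than in the untreated control, with a median log2 ratio of -0.78 and a range from -1.60 for Pfkp to -0.54 for Eno1. The median over the 15640 genes tested was -0.0055. The 2-fold rule called 3 of the 10 genes lower, Pfkp, Pgk1 and Gapdh, against 0.652% of all genes tested. None was called higher, a call that 0.934% of all genes received. At a 1.5-fold limit 9 of 10 were called lower, all but Eno1, against 2.47% of all genes, and at a 3-fold limit 1, Pfkp, against 0.128%.

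Pfkp, the platelet-type phosphofructokinase, gave 1162 in untreated organoids, 375 after 5-Aza-CdR, 311 on the control shRNA array and 321 after Dnmt1 knockdown. The untreated control thus stood alone, with the other arrays close to each other. Its log2 ratio with 5-Aza-CdR was -1.60, the 19th lowest of all genes tested. Pfkl, the liver-type enzyme of the same step, gave 839, 517, 74.6 and 60.2 in the same order of arrays. Its log2 ratio was -0.73 with 5-Aza-CdR and -2.53 between the controls, where Pfkp had -1.27. Of the 2 phosphofructokinase genes, Pfkp was thus further down with 5-Aza-CdR and Pfkl between the controls.

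Pgk1, phosphoglycerate kinase, gave 16081 in untreated organoids, 5912 after 5-Aza-CdR, 2858 on the control shRNA array and 2092 after Dnmt1 knockdown. Each array was lower than the one before, and Pgk1 had the lowest ratio of the 10 genes with Dnmt1 knockdown (-0.54). Its log2 ratio was -1.46 with 5-Aza-CdR and -1.74 between the controls. Gapdh, the dehydrogenase that is often used as a reference gene, had intensities of 506, 218, 69.4 and 58.9. By these intensities it was 2.32-fold lower with 5-Aza-CdR and 7.30-fold lower in the control shRNA organoids than in the untreated control, and the log2 ratios after normalization were -1.23 and -1.99. The study's RT-PCR of Dnmt1 was set relative to Gapdh, whose log2 ratio with Dnmt1 knockdown was -0.26 here. Gapdh has many processed pseudogenes in the mouse, and whether its probe also binds their transcripts was not tested.

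Slc2a1 gave 690 in untreated organoids and 454 after 5-Aza-CdR, a log2 ratio of -0.67. In the lentiviral cultures it was 146 with control shRNA and 164 with Dnmt1 knockdown, and of the 10 genes it had the highest ratio there (0.07). Between the controls its ratio was -1.55. Hk2, the hexokinase that HIF-1 and Myc are known to induce, had intensities of 924, 529, 405 and 405. Hk2 had a log2 ratio of -0.83 with 5-Aza-CdR, and its -0.64 between the controls was the smallest difference of the 10 genes there. The control shRNA and Dnmt1 knockdown values of Hk2 were nearly the same.

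The 2 Aldoa probes measured the aldolase of muscle and most growing cells. The brighter probe gave 15150 in untreated organoids, 8579 after 5-Aza-CdR, 2433 on the control shRNA array and 2223 after Dnmt1 knockdown, and the other gave 3405, 1541, 389 and 361. Both had the same order of arrays, but the log2 ratio with 5-Aza-CdR was -0.68 at the brighter probe and -1.11 at the other. The gene was therefore not called with the probe taken for it and would be with the other. Between the controls the ratios were -1.85 and -2.43. Over the 174 genes with several probes, the ratios of probes of the same gene had an SD of 0.19 in this comparison, 0.14 with Dnmt1 knockdown and 0.43 between the controls. This SD describes probes of a gene on the same arrays and is no replicate error.

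Pgam1, phosphoglycerate mutase, gave 14747 in untreated organoids, 7429 after 5-Aza-CdR, 3655 on the control shRNA array and 3260 after Dnmt1 knockdown. Its log2 ratio with 5-Aza-CdR of -0.88 was just short of 2-fold, and that between the controls was -1.18. Ldha had intensities of 15248, 8888, 3998 and 3486 and log2 ratios of -0.61 with 5-Aza-CdR and -1.10 between the controls. Eno1, enolase 1, had 12219, 7529, 975 and 1022. Of the 10 genes it had the smallest difference with 5-Aza-CdR (-0.54) and the largest between the controls (-2.78).

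The size of the difference with 5-Aza-CdR depended on the scaling of the arrays, because the 5-Aza-CdR array was brighter as a whole. The authors multiplied its blank-subtracted signals by 0.554 and those of the untreated control by 0.829. Without any scaling, an alternative added once the values were known, all 10 genes were still below the untreated control, by 1.02-fold for Slc2a1 up to 2.07-fold for Pfkp. In that setting Pfkp alone passed 2-fold, and the median was 0.75 over all genes against -0.23 for the 10 genes.

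**Figure D2:**
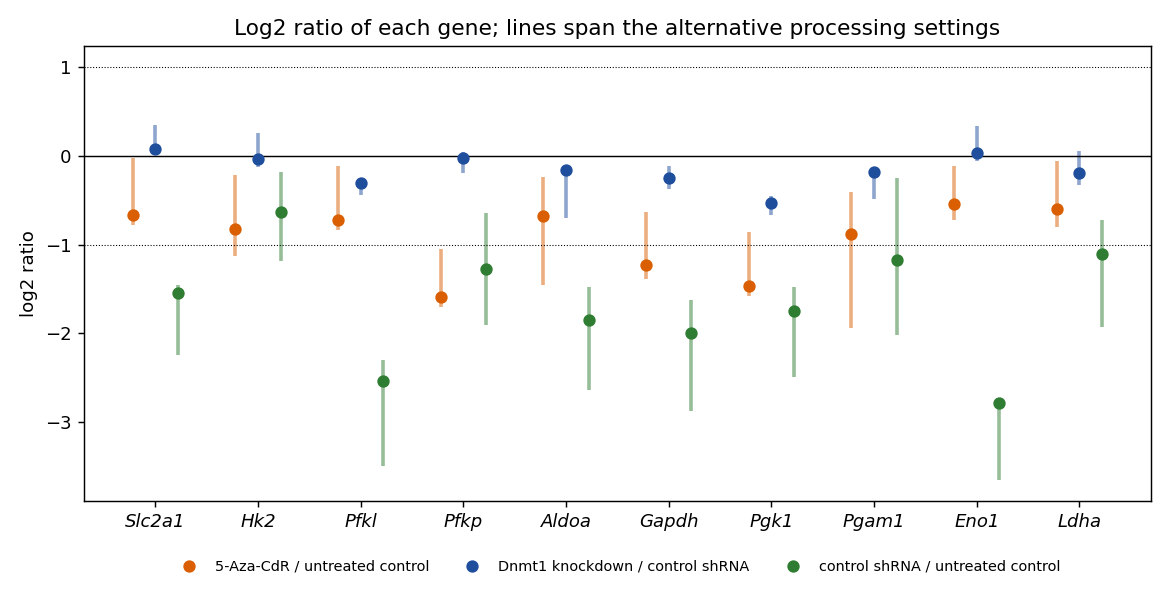
Log2 ratio (vertical axis) of each gene in the comparisons of 5-Aza-CdR, of Dnmt1 knockdown and of the controls. Points show the reported values, lines the span over the alternative settings, and dotted lines 2-fold. With 5-Aza-CdR the 10 points lie between -1.60 and -0.54, and with Dnmt1 knockdown between -0.54 and 0.07.

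With Dnmt1 knockdown none of the 10 genes was called. Their median log2 ratio was -0.17, that of the 14393 genes tested was -0.0049, and 8 of the 10 were below 0. Among all genes 0.139% were called lower and 0.327% higher. At a 1.5-fold limit also 0 of 10 were called lower, against 0.889% of all genes. Pgk1 was 1.45-fold lower after normalization, and next came Pfkl with a log2 ratio of -0.31. Ldha had -0.20, Pgam1 -0.18 and Aldoa -0.17. Hk2 with -0.04, Pfkp with -0.02 and Eno1 with 0.03 lay nearest to 0, and under at least 1 other setting each of these 3, and Ldha, had the opposite sign. Dnmt1 itself, the targeted gene, had an intensity of 126 with control shRNA and 71.7 with its shRNA.

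All 10 genes were lower in the control shRNA culture than in the untreated control, 9 of them by at least 2-fold, against 3.96% of all 15141 genes tested that were called lower and 3.94% called higher. Hk2 was the member not called. The median log2 ratio was -1.65 for the 10 genes and -0.0014 for all genes. At a 3-fold limit 5 of 10 were called, Pfkl, Aldoa, Gapdh, Pgk1 and Eno1, against 1.28% of all genes. In the deposited values the differences ran from 2.28-fold for Hk2 to 11.2-fold for Pfkl and 12.5-fold for Eno1. All genes were shifted down on that scale, with a median log2 ratio of -0.50, and 4026 were called lower and 1075 higher. After normalization these 3 genes were 1.56-fold, 5.78-fold and 6.87-fold lower. The control shRNA culture had a lentiviral vector and puromycin and was harvested at another day than the untreated control, and these differences cannot be told apart. This comparison shares the untreated control with the 5-Aza-CdR comparison and the control shRNA array with the knockdown comparison. The log2 ratio of Pfkp was -1.60 with 5-Aza-CdR and -1.27 between the controls, that of Hk2 -0.83 and -0.64, and in the other 8 genes the second value was the lower.

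**Figure D3:**
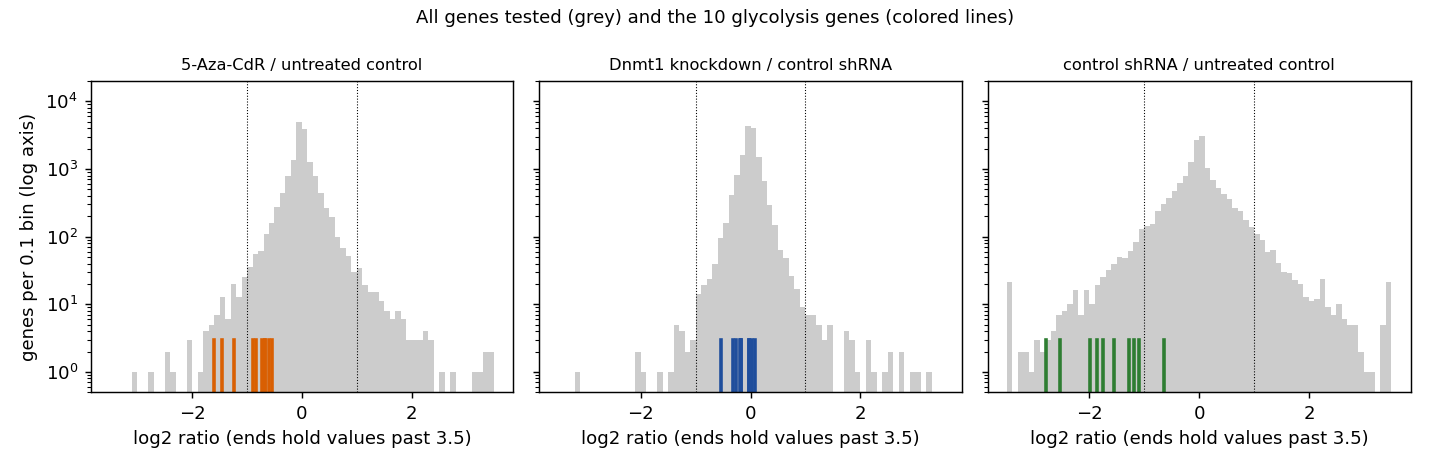
Number of genes (vertical axis, log scale) by log2 ratio for all genes tested in each comparison, with the 10 genes as colored lines and dotted lines at 2-fold. The 10 genes lie on the low side with 5-Aza-CdR and between the controls, and around -0.17 with Dnmt1 knockdown.

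The promoters of these genes are shown because HIF-1 is a shared known activator. This choice was made after the members had been seen to lie low together in the 5-Aza-CdR and the control comparison. Known targets of HIF-1 can hold its motif whatever the arrays showed, and the part of HIF-1 in the low values was not tested. HIF-1 binds the core letters ACGTG and also binds those with a different first letter, GCGTG, and both were searched on both strands in RefSeq windows of 300 bases, from 250 before to 50 after the gene start (GRCm38.p6). All 10 members matched the table by symbol, with 15 windows. At least 1 match was found in 14 of the 15 windows and in 43.8% of 32851 windows of all genes. Each of the 10 genes had a match in some window. Both motifs hold the letters CG, and the share of all windows was not matched for CG content. The 14 windows with a match held 12 to 30 CG, and the window without, the first of Aldoa, held 0. ACGTG was in 8 of the 15 windows and in 19.6% of all windows, and GCGTG in 10 and in 32.4%. The palindrome CACGTG, which Myc also binds, holds ACGTG on both strands and counts as 2 matches. It was in 1 of the 15 windows, the first of Ldha, and in 7.15% of all windows. Windows of a gene can overlap, and windows 2 and 3 of Eno1 and of Aldoa hold the same matches, which the counts of windows therefore include repeatedly. Counted by gene, ACGTG was in 7 of the 10 genes and GCGTG in 7. The shares given for all windows are no comparison for these counts by gene, since a gene with several windows can match in any of them. A share by gene was not computed over all genes. A match is a description of the letters and not a site in use.

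Shown are the 250 bases before the start of the 3 genes called with 5-Aza-CdR and of Ldha. Ldha has 2 windows, and the first is shown because its 5 matches of ACGTG were the most in any window of the 10 genes, while the second had none. Capitals mark both motifs and their reverse complements. Matches within the 50 bases after the start, 1 each of Pfkp and Gapdh and 2 of Ldha, are counted but not shown. The windows lie at chrX:106186850-106187099 on the plus strand for Pgk1, chr13:6648772-6649021 on the minus strand for Pfkp, chr6:125165774-125166023 on the minus strand for Gapdh and chr7:46845554-46845803 on the plus strand for Ldha.
Pgk1: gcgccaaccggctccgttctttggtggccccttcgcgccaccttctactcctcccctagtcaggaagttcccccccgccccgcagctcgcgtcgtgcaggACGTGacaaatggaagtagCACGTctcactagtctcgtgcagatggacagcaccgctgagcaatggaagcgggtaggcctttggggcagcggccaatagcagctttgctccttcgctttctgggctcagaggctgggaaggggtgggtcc
Pfkp: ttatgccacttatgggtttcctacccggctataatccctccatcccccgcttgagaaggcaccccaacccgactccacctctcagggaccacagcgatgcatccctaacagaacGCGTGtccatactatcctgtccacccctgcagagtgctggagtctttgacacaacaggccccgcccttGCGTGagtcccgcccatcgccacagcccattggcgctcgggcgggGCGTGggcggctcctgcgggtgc
Gapdh: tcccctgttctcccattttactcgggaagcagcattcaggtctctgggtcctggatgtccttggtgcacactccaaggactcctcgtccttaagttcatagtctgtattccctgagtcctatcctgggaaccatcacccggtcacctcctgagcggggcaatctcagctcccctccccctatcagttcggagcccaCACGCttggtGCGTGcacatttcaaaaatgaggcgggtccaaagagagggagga
Ldha: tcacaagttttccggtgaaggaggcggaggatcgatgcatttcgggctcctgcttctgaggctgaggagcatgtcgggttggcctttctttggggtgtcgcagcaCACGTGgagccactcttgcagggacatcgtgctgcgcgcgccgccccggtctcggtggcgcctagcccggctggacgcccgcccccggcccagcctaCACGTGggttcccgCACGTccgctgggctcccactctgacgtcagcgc

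Pgk1 had 2 matches of ACGTG in its window and no GCGTG, and Pfkp had 4 of GCGTG and no ACGTG. Gapdh had 1 and 2. Ldha had 5 and 2 in its first window, and 0 and 2 in its second. Among the members not called with 5-Aza-CdR, Hk2 had 2 of ACGTG, Pgam1 1 of ACGTG and 2 of GCGTG, and Slc2a1 1 of each. Aldoa had no match in its first window, the only 1 of the 15 without any, and the same ACGTG in both others. Matches were thus not limited to the genes that were called. Eno1, with the largest difference between the controls, had GCGTG alone, 2 in each of its 3 windows (windows 2 and 3 share theirs), and Pfkl had 1 GCGTG.

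The other glycolytic enzymes and isozymes make up the rest of the pathway. Of 18 tested with 5-Aza-CdR, 3 were called lower and 1 higher, with a median of -0.12. Gpi1, the isomerase between hexokinase and phosphofructokinase, gave 4049 in untreated organoids, 1951 after 5-Aza-CdR, 596 on the control shRNA array and 466 after Dnmt1 knockdown, and a log2 ratio of -1.04 with 5-Aza-CdR. Pkm2 (Pkm), pyruvate kinase, had 5493, 2107, 631 and 436 and a ratio of -1.35. Aldoc, aldolase C, had 3156, 959, 395 and 272 and a ratio of -1.62. Tpi1, triosephosphate isomerase, was not called with 5-Aza-CdR (-0.74) and was called between the controls (-2.23). Several enzymes of the steps between the 10 genes thus had the same order of arrays. Ldhb, the subunit of lactate dehydrogenase that prevails in heart, went the other way, with 11.5 in untreated organoids, 108 after 5-Aza-CdR, 15.2 on the control shRNA array and 14.2 after Dnmt1 knockdown, and a log2 ratio of 1.37. With Dnmt1 knockdown 0 of 16 were called, where 0.139% of all genes were called lower and 0.327% higher. Between the controls 4 of 17 were called lower, Gpi1, Pkm2, Aldoc and Tpi1, against 3.96% of all genes.

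**Figure D4:**
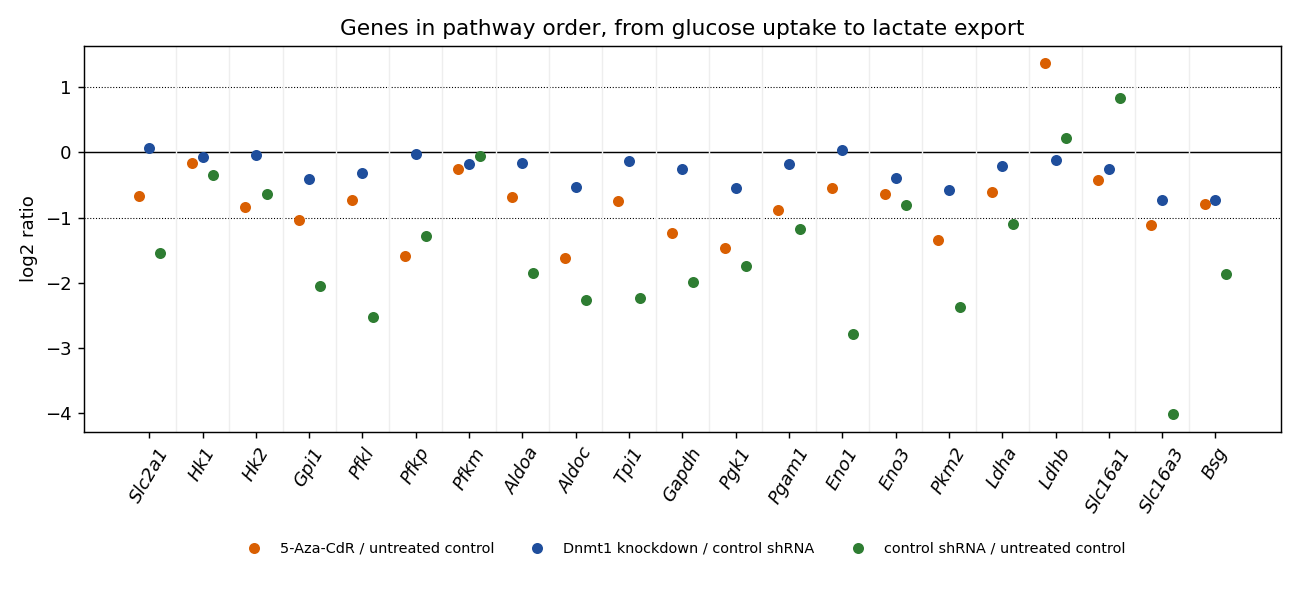
Log2 ratio (vertical axis) of the 10 genes and of further enzymes and transporters, ordered from glucose uptake to lactate export, for the comparisons of 5-Aza-CdR, Dnmt1 knockdown and the controls; dotted lines mark 2-fold. Ldhb stands apart at 1.37 with 5-Aza-CdR, and Slc16a3 lies lowest, at -4.01 between the controls.

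Among the genes of lactate export and pyruvate entry, Slc16a3 (Mct4), the lactate exporter of highly glycolytic cells, gave 2445 in untreated organoids, 1103 after 5-Aza-CdR, 69.0 on the control shRNA array and 34.5 after Dnmt1 knockdown. It was the 1 of 18 such genes called with 5-Aza-CdR (-1.11), where 0.652% of all genes were called lower. Its ratio between the controls was -4.01. Bsg, the partner that carries this exporter to the membrane, had ratios of -0.80 in the 5-Aza-CdR and -0.72 in the knockdown comparison. Pdk1, a kinase that inhibits pyruvate dehydrogenase, had -0.93 and -0.47. Between the controls both were called lower, Bsg with -1.86 and Pdk1 with -1.31. None of the other glucose transporters was called in either treatment comparison, 13 tested with 5-Aza-CdR (median -0.02, lowest -0.15 for Slc2a8) and 11 with Dnmt1 knockdown (median 0.03). Their probes were dim, with at most 83.9 (Slc5a1 after Dnmt1 knockdown), and the offset of 50 draws the ratios of dim probes toward 0, so they were not set against Slc2a1. Of 17 genes of the citric acid cycle 0 were called in either, with medians of -0.08 and -0.16, and the same held for 8 genes of the pentose phosphate pathway, with -0.04 and -0.08. Among all genes 0.652% were called lower and 0.934% higher with 5-Aza-CdR, and 0.139% and 0.327% with Dnmt1 knockdown. For lists of this size 0 calls are thus near the share of all genes.

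Genes known to be induced by hypoxia outside glycolysis also lay low with 5-Aza-CdR, in part with another order of arrays. Of 18 tested with 5-Aza-CdR, 7 were called lower, against 0.652% of all genes, and 18 were below 0, with a median of -0.81. Between the controls 9 were called lower, against 3.96% of all genes, with a median of -0.95. With Dnmt1 knockdown 0 of 18 were called, where 0.139% of all genes were called lower, and the median was -0.12. Car9, a carbonic anhydrase induced by HIF-1, gave 1210 in untreated organoids, 213 after 5-Aza-CdR, 26.6 on the control shRNA array and 27.4 after Dnmt1 knockdown. Egln3, an oxygen sensor that HIF-1 induces, had 1202, 342, 201 and 113. Both were dimmer in the lentiviral cultures than with 5-Aza-CdR, as the 10 genes were, but 3 of the 7 called genes were dimmest with 5-Aza-CdR. Ndrg1, a stress-induced gene and the lowest of the list (-2.48), had 620, 86.0, 307 and 284, and Vegfa, the angiogenic growth factor, had 88.7, 21.9, 54.5 and 43.9. Ero1l, an oxidase of the endoplasmic reticulum, had 347, 90.4, 457 and 358, and its ratio between the controls was 0.78. Hif1a transcript itself had 98.4, 178, 240 and 206, and was called higher between the controls (1.39). HIF-1 is known to be controlled mainly through the stability of its protein, which these arrays do not measure. Oxygen was not measured in the data used here, and its part in the result was not tested. Txnip, which restrains glucose uptake, was called lower with 5-Aza-CdR (-1.23) and between the controls (-2.03). It had a log2 ratio of 0.07 in the knockdown comparison.

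**Figure D5:**
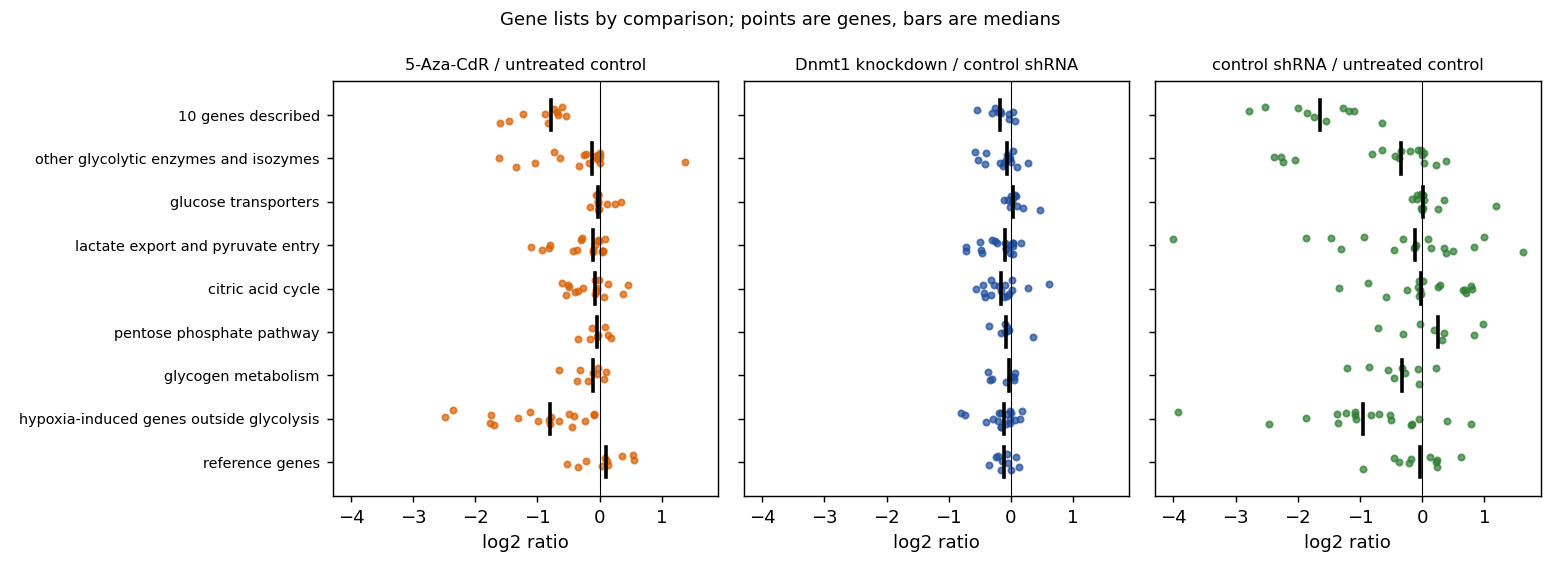
Log2 ratio (horizontal axis) of the genes of each list in the comparisons of 5-Aza-CdR, Dnmt1 knockdown and the controls; each point is a gene and each bar the median of its list. The bars of the 10 genes and of the hypoxia-induced genes lie at -0.78 and -0.81 with 5-Aza-CdR, and that of the reference genes at 0.10.

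Actb, which encodes beta-actin, gave 15299 in untreated organoids and 17700 after 5-Aza-CdR (log2 ratio 0.54), and 0 of 10 reference genes were called in any comparison. Calls were few among all genes too, from 0.139% lower with Dnmt1 knockdown to 3.96% lower between the controls. Markers of intestinal epithelium had summed intensities of 9671, 10493, 4945 and 4378 over 5 genes, so the deposited sum was lower in the lentiviral cultures, while the median log2 ratio of these genes between the controls after normalization was 0.05. Tacstd1 (Epcam), an adhesion molecule of epithelial cells, had 7627, 7199, 3466 and 2684. Markers of immune cells summed to 198, 182, 69.9 and 110 over 4 genes, with 194, 178, 67.5 and 105 for the macrophage marker Cd68 and Itgam below detection on each array. Those of mesenchymal cells summed to 67.7, 137, 36.6 and 43.2 over 6 genes, of which Acta2, smooth muscle actin, had 12.1, 83.7, 2.27 and 2.88 and was called higher with 5-Aza-CdR (1.11). The higher sum with 5-Aza-CdR was that of Acta2, since 4 of the 6 genes were below 0 there and their median log2 ratio was -0.02. Those of endothelial cells were between 14.3 and 32.2 over 4 genes. Of 5 markers of Wnt-active tumor epithelium, 1 was called lower and 1 higher between the controls. Of all genes 3.96% were called lower there and 3.94% higher. Lgr5, the stem cell marker, had 292, 203, 15.2 and 18.6 and was the one called lower (-2.46), and Cd44, an adhesion receptor, had 20.7, 46.7, 84.6 and 73.4 and was the one called higher (1.38). The ratios of the others were -0.59 for Sox9, -0.34 for Ascl2 and -0.04 for Axin2. The part of these cell types in the values of the 10 genes was not tested.

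The genes outside the 10 with the most similar pattern were Sash1, Serpinb9d, Apoa2, Ets2 and Fxyd5, by Euclidean distance over the 4 arrays to the mean pattern of the 10, each gene centred on its own mean, among 13447 genes detected on each array. Sash1 was closest, at a distance of 0.04 in log2 units, with intensities of 211, 103, 28.4 and 23.9. Ets2, a transcription factor, had 5685, 3306, 1111 and 1088. Serpinb9d had 124, 66.9, 9.55 and 10.4, Apoa2 97.0, 50.3, 5.36 and 4.15, and Fxyd5 124, 49.3, 3.05 and 3.32. These 3 were dim in the lentiviral cultures, and the offset of 50 draws the ratios of dim probes toward 0. Their likeness to the members thus holds on the normalized scale and is not that of the deposited intensities. Sash1 was also dim there, with 28.4 and 23.9, so its small distance likewise holds on the normalized scale only. The members themselves lay between 0.27 for Slc2a1 and 1.25 for Eno1 from their mean pattern. The log2 ratios of the members spanned -2.78 to -0.64 between the controls and -1.60 to -0.54 with 5-Aza-CdR. The 5 genes were picked as the nearest of all, so their distances cannot be set against those of the members.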

How the data were processed

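RNA of 4 tumor organoid cultures was measured on Toray arrays in a single color (Cy5), 1 array per condition, and the number of arrays limits the precision. The deposited intensity of each probe is the spot signal after the authors took away the blank mean and scaled it to an array median of 25; recomputed so, 99.9963% of 81621 values lay within 1%. Members are probes whose gene symbol in the platform's probe annotation is a member. The members and the gene lists were chosen with earlier results of these data known. Spot signals were corrected with limma 3.58.1 (R 4.3.3; normexp, offset 50, no local background) and quantile normalized, further steps used Python 3.11.15, and the steps were tested on simulated data. The detection limit was the blank mean plus 2 SD (after trimming 5% of blanks from either tail). It lay between 42.3 and 46.6, the spot signals of the members between 121 and 19436, and none was marked as bad by the scanner. Values below it were set to the lowest detected value. Of several probes of a gene, that with the highest mean was taken. Named were the members, genes called in a list or else its 3 with the largest ratios (given in part), and the 5 nearest in pattern. Alternatives used deposited intensities, plain blank subtraction, an offset of 16, local background subtraction, median, 75th percentile and within-comparison scaling, centring on reference genes, the mean of probes, other fold limits, no filter and, added with the values known, no scaling. Probe sequences were not used here.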

Additional observations from a re-analysis of the deposited data

How the results depend on the processing

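All 10 genes were below the untreated control with 5-Aza-CdR, and likewise in the control shRNA culture, under each alternative run. The 3 genes called with 5-Aza-CdR became 5, with a median log2 ratio of -1.05, on subtraction of the local background, 9 at 1.5-fold, 1 at 3-fold and 1 without scaling, an alternative added once the values were known. The count was 2 with median scaling and 4 with 75th percentile scaling, where Pgam1 passed 2-fold (-1.01). Gapdh lost its call with the local background (-0.98), with median scaling (-0.84) and without scaling (-0.63). Pgk1 lost its call without scaling (-0.86). The local background followed each spot's signal, with correlations of 0.81 to 0.96 between their logs. The 9 genes called between the controls became 5 at 3-fold, 6 with the local background, where Pfkp (-0.64), Pgam1 (-0.26) and Ldha (-0.73) lost their calls, and 10 in deposited values, where Hk2 passed 2-fold (-1.19). With Dnmt1 knockdown the sign turned for Pfkp in deposited values (0.045) and on centring on the reference genes (0.031), for Hk2 with the local background (0.25) and on that centring (0.018), for Ldha with the local background (0.053), and for Eno1 with median (-0.066) and 75th percentile scaling (-0.044) and without scaling (-0.043); the cause was not tested. Of the member ratios under alternatives, 92 with 5-Aza-CdR, 92 with Dnmt1 knockdown and 96 between the controls kept direction and side of 2-fold; with 5-Aza-CdR 4 newly passed 2-fold and 4 no longer did.

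Over all genes, 146 were higher and 102 lower with 5-Aza-CdR, against 947 and 327 in deposited values, 243 and 177 with an offset of 16, 584 and 428 with plain blank subtraction, 344 and 52 with median scaling, 108 and 144 centred on the reference genes and 4162 and 98 without scaling. With Dnmt1 knockdown 47 and 20 became 851 and 117, 74 and 57, and 204 and 303 under the first 3 of these, 208 and 364 with the local background, and 644 and 159 without scaling. Between the controls 597 and 600 became 1075 and 4026, 963 and 990, and 1747 and 1841 under the same 3, 404 and 789 with median scaling, and 1368 and 2925 without scaling. The median of all genes moved with the scaling, to 0.17, 0.19 and -0.50 in deposited values for the comparisons in this order, to -0.34 with 75th percentile scaling and 0.75 without scaling for 5-Aza-CdR. Relative to it, the members' median with 5-Aza-CdR was -0.77, or -0.49 by median scaling and -0.98 by deposited values. No paired analysis was possible because each condition has 1 array.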

Other observations

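Of 5 gluconeogenesis genes, 2 were called higher and 0 lower between the controls, where 3.94% of all genes were called higher and 3.96% lower. Of 18 genes of lactate export and pyruvate entry, 1 was called higher, a share near that of all genes, and 4 were called lower, Slc16a3, Bsg, Pdk1 and Pdk4. Fbp2, a fructose bisphosphatase, gave 187 in untreated organoids, 254 after 5-Aza-CdR, 739 on the control shRNA array and 679 after Dnmt1 knockdown, a log2 ratio of 2.27 between the controls. Pck2, the mitochondrial phosphoenolpyruvate carboxykinase, had 101, 146, 596 and 433, a ratio of 2.61. Dld, a subunit shared by several mitochondrial dehydrogenases, had 367, 313, 845 and 718, a ratio of 1.62. These 3 genes, Fbp2, Pck2 and Dld, were brighter in both lentiviral cultures. Pdk4, a kinase that inhibits pyruvate dehydrogenase, had 90.4, 112, 5.74 and 8.36, a ratio of -1.47. Pfkfb3, which makes the allosteric activator of phosphofructokinase, had 272, 194, 44.1 and 77.2, and its log2 ratio with Dnmt1 knockdown was 0.47.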
